A study of Mus musculus with 52 samples.

Results

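Klf2, Klf4, Nos3, Thbd and Edn1 are endothelial genes whose transcription follows the shear stress of flowing blood. They were chosen by name as the flow-responsive KLF transcription factors and 3 of their targets, and they are 5 of the 49585 genes with at least 1 transcript in the quantification files. Each was followed through all sorted-cell and RiboTag libraries by estimated reads and TPM (a transcript level scaled to length and to the library total) summed over its transcripts.

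Klf2 and Klf4 encode zinc-finger transcription factors of the Krüppel-like family. In endothelial cells (ECs), steady laminar flow is sensed by junctional and membrane proteins and relayed through the MEKK3-MEK5-ERK5 kinase cascade to MEF2 factors, which induce both genes. The KLF factors in turn raise Nos3 (endothelial nitric oxide synthase, which makes the vasodilator nitric oxide) and Thbd (thrombomodulin, the receptor that turns thrombin into an activator of the anticoagulant protein C), and hold down Edn1, the precursor of the vasoconstrictor peptide endothelin-1. Klf2 and Klf4 are also immediate early genes, which cells induce within minutes of many stimuli, tissue dissociation among them.

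All samples came from adult male mice. For the sorted-cell libraries, cells of cerebellum, anterior pituitary and posterior pituitary were dissociated and sorted for GFP: the GFP-positive cells are the vascular ECs and the GFP-negative cells the rest of the tissue. WT mice carried Tie2-GFP, and the beta-catenin stabilized mice carried Tie2-GFP; Pdgfb-CreER; BcatEx3fl, in which 4-hydroxytamoxifen (4HT) given to young mice lets the EC-restricted Pdgfb-CreER delete exon 3 of 1 Ctnnb1 allele and leaves a beta-catenin that resists degradation. The sorted WT mice had no CreER, and the methods name 4HT for the stabilized mice only, so the allele and the recombinase, and the drug if WT mice did not receive it, cannot be told apart in these libraries. Each pituitary library pooled many mice. For the RiboTag libraries, WT mice carried RiboTag; Pdgfb-CreER and stabilized mice RiboTag; Pdgfb-CreER; BcatEx3fl, and both genotypes received 4HT. The HA-tagged ribosomes of recombined cells were immunoprecipitated from cortex and choroid plexus ("bound"), next to RNA of the whole tissue ("input"). Open chromatin was profiled by ATAC-seq in GFP-positive cells of the same 3 tissues and genotypes as the sorted libraries. There were 24 sorted libraries in 12 groups, 16 RiboTag libraries in 8 groups and 12 ATAC-seq libraries in 6 groups, with 2 libraries in each group. Nothing in the labels says more about how the 2 libraries of a group relate, so the p-values measure only the spread between these samples.

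The sorted libraries held 12157485 to 37529274 estimated reads and the RiboTag libraries 6409013 to 21399125. The 10 endothelial markers summed to between 1943.3 and 7251.7 TPM in the GFP-positive libraries and between 3.28 and 35.0 TPM in the GFP-negative ones, as their labels say. The bound cortex libraries of WT mice also held 1389.2 and 1734.8 TPM over 10 neuron markers and 2151.5 and 1449.8 TPM over 10 microglia and macrophage markers, and the bound choroid plexus libraries of WT mice held 22407.0 and 23342.0 TPM over 10 choroid plexus epithelium markers, so bound RNA was enriched for EC transcripts but not free of others. Summed over 7 Wnt target genes, TPM in posterior pituitary ECs was 14.4 and 25.5 for WT mice against 190.1 and 203.8 after stabilization, where 5 of the 7 passed the test. In bound choroid plexus it was 34.0 and 18.9 against 139.8 and 135.1, where 3 passed. Of all genes, 1.79% and 0.852% were called in either direction in these 2 comparisons. The exon 3 deletion itself cannot be read from values summed per gene. The label of 1 stabilized anterior pituitary GFP-positive library (replicate 2) names the posterior lobe in its tissue field, against its title and source name, which were followed here. Levels are compared between genes in TPM, and differences between stabilized and WT ECs for the 5 genes are given mainly in CPM (estimated reads scaled to the library total), because the TPM of all genes shifted as a block in some comparisons: the median log2 ratio was -0.38 for stabilized over WT posterior pituitary ECs, -0.74 for stabilized over WT bound cortex and -0.86 for WT choroid plexus over WT cortex bound RNA, where the fits on counts gave medians between -0.01 and 0.01. The fold changes come from the fit, which scales libraries by TMM factors, and so need not equal the ratio of the CPM values, nor that of TPM values where those are printed, which include this shift.

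On the GRCm38 assembly, Klf2 (ENSMUSG00000055148) lies at chr8:72319033-72321656 on the plus strand, Klf4 (ENSMUSG00000003032) at chr4:55527143-55532466 on the minus strand, Nos3 (ENSMUSG00000028978) at chr5:24364810-24384474 on the plus strand, Thbd (ENSMUSG00000074743) at chr2:148404466-148408188 on the minus strand and Edn1 (ENSMUSG00000021367) at chr13:42301476-42307990 on the plus strand. The RefSeq promoter table matched 3 of the 5 genes, and these sequences are shown because the largest genotype differences in ECs below are those of Klf4 and Edn1, and because Klf2 is the gene in which the MEF2 step of the pathway can be read. They are the 250 bases before the RefSeq start on GRCm38.p6, read 5′ to 3′ on the gene's strand, for Klf2 chr8:72318812-72319061, for Klf4 chr4:55532476-55532725 and for Edn1 chr13:42301226-42301475. Capitals mark matches, on either strand, to the MEF2 consensus (CTA, any 4 bases, TAG), the GC box GGGCGG, the CACCC box through which KLF factors bind, and GAGACC, a shear stress response element.
Klf2: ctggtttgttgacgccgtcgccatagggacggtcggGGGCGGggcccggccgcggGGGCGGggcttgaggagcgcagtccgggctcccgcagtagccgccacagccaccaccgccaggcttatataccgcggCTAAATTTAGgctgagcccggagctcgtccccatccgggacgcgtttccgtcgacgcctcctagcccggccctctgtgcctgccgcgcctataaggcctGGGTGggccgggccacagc
Klf4: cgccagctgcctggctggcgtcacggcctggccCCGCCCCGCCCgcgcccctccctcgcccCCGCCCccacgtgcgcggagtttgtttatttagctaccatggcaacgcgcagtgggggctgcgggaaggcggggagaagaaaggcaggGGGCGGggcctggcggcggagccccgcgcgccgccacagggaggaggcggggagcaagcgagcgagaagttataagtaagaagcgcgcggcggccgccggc
Edn1: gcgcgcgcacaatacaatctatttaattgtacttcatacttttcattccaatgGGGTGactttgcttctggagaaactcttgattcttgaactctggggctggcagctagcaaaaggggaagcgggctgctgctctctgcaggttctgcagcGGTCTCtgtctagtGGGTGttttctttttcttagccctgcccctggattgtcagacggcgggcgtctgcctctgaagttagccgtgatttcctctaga
The Klf2 promoter held 1 MEF2 match, at -118 to -109 from the start, a sequence present in 3.2% of 32851 promoters of the same length, together with 2 GC boxes and 1 CACCC box. The Klf4 promoter held 4 GC boxes, 2 of them overlapping, and no MEF2 or CACCC match. The Edn1 promoter held 2 CACCC boxes and 1 GAGACC element, which occur in 52.01% and 13.69% of promoters. The TCF/LEF motifs TTCAAAG and ATCAAAG, by which beta-catenin's partner factors bind DNA, were in none of the 3 windows and in 4.46% and 3.21% of all promoters. GC content was 71.2%, 74.0% and 50.4% for Klf2, Klf4 and Edn1.

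The first comparison asked how far the 5 genes belong to ECs in these tissues. All of them were higher in sorted ECs than in the GFP-negative cells of WT cerebellum and posterior pituitary, and 4 of 5 were in WT anterior pituitary, the exception being Edn1. Klf2 in WT cerebellum stood at 50.0 and 56.8 TPM in ECs against 4.89 and 2.94 TPM in GFP-negative cells, a log2 fold change of 3.62 ± 0.61 (SE, n = 2 per group, edgeR quasi-likelihood test, Benjamini-Hochberg adjusted p = 0.000576). Klf4 stood at 125.4 and 69.8 TPM against 15 and 3.12 TPM there (3.26 ± 0.57, edgeR adjusted p = 0.00082). Nos3 was close to 0 outside the gate, with 37.2 and 35.6 TPM in ECs against 0.375 and 0.0956 TPM (7.16 ± 1.19, edgeR adjusted p = 0.000612). Thbd was 12.3-fold and Edn1 95.3-fold higher in the fit, and the ratio of the Edn1 reads themselves was 113.0 (counting interval 86.3 to 151.1). A gene was counted as called at an edgeR adjusted p under 0.05 and a change of at least 2-fold. The 5 of 5 in cerebellum, 4 of 5 in anterior pituitary and 5 of 5 in posterior pituitary compare with 4.46%, 5.46% and 7.07% of the 21343 genes tested that were called higher in ECs.

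The KLF factors were not silent outside the EC gate in the pituitary. In WT anterior pituitary, GFP-negative cells held Klf2 at 13.3 and 17.2 TPM and Klf4 at 9.52 and 17.2 TPM, and in WT posterior pituitary they held Klf4 at 34.3 and 27.5 TPM. The GFP-negative endothelial markers summed to only 31.1 and 31.7 TPM and to 7.16 and 3.4 TPM in those groups. The lead of posterior pituitary ECs over GFP-negative cells was accordingly smallest for Klf4 (log2 1.85 ± 0.54, edgeR adjusted p = 0.0246) and largest among the fitted values with counts in all libraries for Klf2 (6.63 ± 0.70, edgeR adjusted p = 3.37e-06). Edn1 was listed at 0 in both GFP-negative libraries of each pituitary lobe, which put posterior pituitary ECs at least 318.9-fold higher against a floor of 3 counts over the group. In anterior pituitary, Edn1 had 4 and 0 estimated reads in ECs against 0 and 0, and did not pass the test (edgeR adjusted p = 0.23). Fitted on the posterior pituitary groups alone, Klf4 and Nos3 lost the call there, Klf4 also lost it without WT GFP-negative replicate 2 or WT GFP-positive replicate 1, and Nos3 lost its anterior pituitary call when either WT GFP-negative library was left out.

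The bound fraction gave the same direction. All 5 genes were called higher in bound than in input RNA of WT cortex, and 4 of 5 in WT choroid plexus, against 7.46% and 8.67% of 18241 genes. Klf2 in WT cortex was at 171.2 and 24.8 TPM in bound against 1.29 and 0.81 TPM in input RNA (6.03 ± 0.79, edgeR adjusted p = 0.000157). In WT choroid plexus it was at 15.6 and 30.7 TPM against 1.02 and 1.33 TPM (3.32 ± 0.68, edgeR adjusted p = 0.00407). The gene that missed was again Edn1, with 1.36 and 1.21 TPM in bound choroid plexus RNA against 0.0555 and 0.147 TPM in input, ranges that did not overlap (2.53 ± 0.89, edgeR adjusted p = 0.064). TPM was likewise higher in both bound than in both input libraries of WT choroid plexus for 56.4% of all genes.

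**Figure D1:**
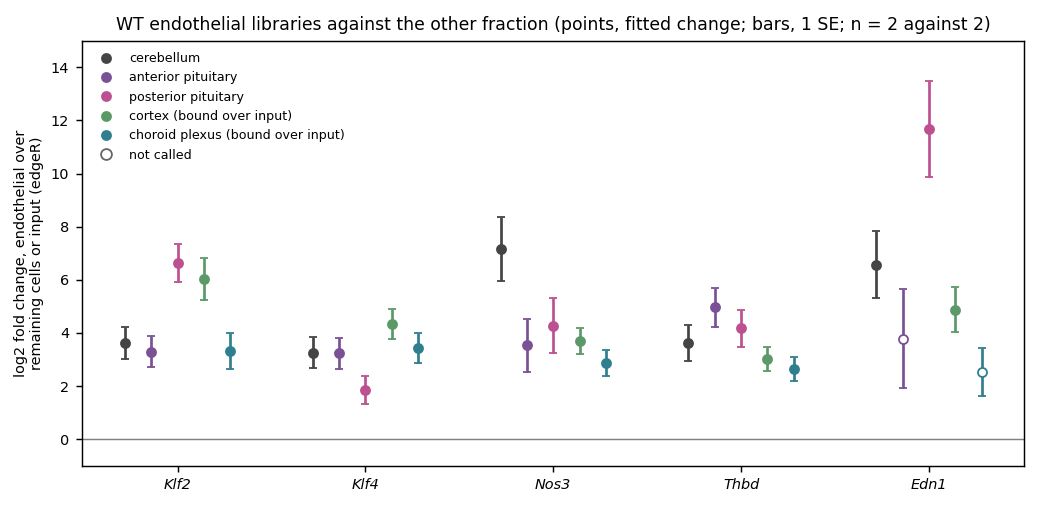
Log2 fold change (y axis) of the 5 genes in WT ECs over GFP-negative cells and in WT bound over input RNA; points are edgeR estimates and bars their standard errors (n = 2 libraries per group). All points lie above 0, from 1.85 for Klf4 in posterior pituitary upward, and the widest bars belong to Edn1.

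Levels in the GFP-positive cells divided the 5 genes into 2 sets on the TPM scale. Klf2, Klf4 and Thbd were highest in the ECs of WT posterior pituitary, at mean TPM of 204.9, 194.2 and 173.9, followed by WT anterior pituitary at 142.0, 138.5 and 103.3 and WT cerebellum at 53.4, 97.6 and 54.5. Nos3 and Edn1 were highest in WT cerebellum, at 36.4 and 36.5 TPM, with WT posterior pituitary at 14.1 and 11.1 TPM and WT anterior pituitary at 6.47 and 0.028 TPM. The 2 posterior and 2 anterior pituitary libraries overlapped in TPM for Klf2 and were separate for the other 4 genes. Over all 17915 genes tested, 19.7% were separate with the posterior lobe higher and 12.3% with it lower. For Klf4 the order of the lobes turned with the scale: its mean CPM was 610.0 in the posterior and 664.3 in the anterior lobe, with overlapping libraries. Cerebellum and anterior pituitary overlapped in TPM for Klf4 alone, where 21.6% of all genes were separate with anterior pituitary higher and 19.5% with it lower. On this length-scaled level, the means of Klf2, Klf4 and Thbd exceeded those of Nos3 and Edn1 in each of the 3 WT EC groups, although the libraries of Thbd (44.2 and 64.7) and Edn1 (45.1 and 27.9) overlapped in cerebellum.

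**Figure D2:**
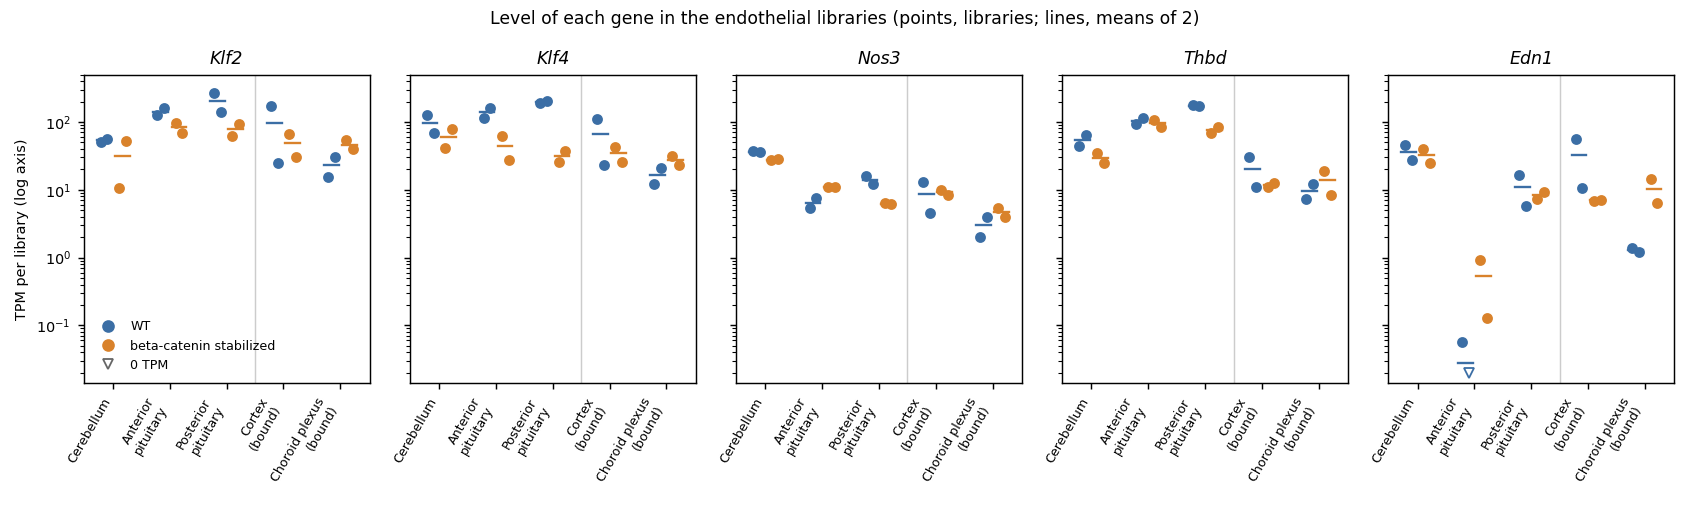
TPM of each gene (y axis, log scale) in every GFP-positive and every RiboTag bound library, by tissue and genotype. Each point is 1 library. Among the sorted ECs, Klf2, Klf4 and Thbd are highest in WT posterior pituitary and Nos3 and Edn1 in cerebellum, and Edn1 is near 0 in WT anterior pituitary; the highest Edn1 library of all is WT cortex bound replicate 1 (55.4).

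The second comparison asked how WT ECs of the pituitary, an endocrine organ with fenestrated vessels, differ from those of the cerebellum, which form a blood-brain barrier. In anterior pituitary ECs, Nos3 and Edn1 were the 2 genes called, both lower than in cerebellum, against 3.0% of the 17915 genes tested that were called lower and 5.26% called in either direction. CPM of Nos3 was 46.9 and 54.8 in anterior pituitary against 288.2 and 309.4 in cerebellum, a 6.38-fold reduction (-2.67 ± 0.26, edgeR adjusted p = 3.78e-05). Edn1 had 4 and 0 estimated reads in anterior pituitary against 3105 and 2238 in cerebellum, a ratio of 1332.2 with a counting interval of 520.0 to 4891.3 (edgeR adjusted p = 7.46e-05). Both genes were therefore separated by far more than the spread of their libraries. Klf2, Klf4 and Thbd had log2 fold changes of 1.29 ± 0.59, 0.46 ± 0.39 and 0.86 ± 0.29 and did not pass (edgeR adjusted p = 0.321, 0.612 and 0.144). Klf2 was called with no count filter (0.00157) and in a fit of the 2 groups alone (0.0302), and Thbd without WT cerebellum replicate 2 (1.27, adjusted p = 0.0418).

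In posterior pituitary ECs, 2 of 5 genes were called against cerebellum, where 4.4% of genes were. Nos3 was lower, at 97.5 and 80.8 CPM against 288.2 and 309.4 CPM (3.55-fold, -1.83 ± 0.25, edgeR adjusted p = 0.000708). Thbd was higher, at 910.2 and 1021.3 CPM against 289.3 and 423.9 CPM (2.57-fold, 1.36 ± 0.29, edgeR adjusted p = 0.0176). The Thbd call was lost with an offset for effective gene length (adjusted p = 0.0937), in a fit of the 2 groups alone (0.2), without WT cerebellum replicate 1 (0.134) and without WT posterior pituitary replicate 2 (0.0593). Edn1 was at 22.7 and 10.3 CPM against 93.1 and 79.7 CPM and did not pass (-2.49 ± 0.72, edgeR adjusted p = 0.0857), but it was called in the fit of the 2 groups alone (0.0458), with a replicate block (0.0337), with no count filter (4.43e-05) and by DESeq2 (0.00325).

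Between the lobes, Edn1 was the only one of the 5 genes called, against 0.994% of all genes. It had 652 and 178 estimated reads in WT posterior pituitary ECs against 4 and 0 in the anterior lobe, a ratio of 276.7 (counting interval 107.7 to 1017.8, edgeR adjusted p = 0.00203). A fit of the 2 groups alone gave an adjusted p of 0.227. Log2 fold changes for Nos3, Thbd, Klf2 and Klf4 were 0.85 ± 0.24, 0.50 ± 0.29, 0.08 ± 0.58 and -0.10 ± 0.39, none of which passed. The immediate early genes differed between the libraries of a group: the 13 on the list summed to 1474.2 and 181.3 TPM in WT cerebellum, 3198.1 and 4343.7 TPM in WT anterior pituitary and 2934.9 and 901.2 TPM in WT posterior pituitary ECs. Mural cell markers (10 genes) summed to 1124.6 and 902.7 TPM in cerebellum ECs against 84.2 to 225.1 TPM in the pituitary ones. The part of either list in the tissue differences was not tested.

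The genes around Nos3 and Edn1 moved as follows between WT tissues. Of 11 genes of the nitric oxide pathway, 6 were called lower in anterior pituitary than in cerebellum ECs and none higher, against 3.0% of all genes called lower, with a list median of -2.04 against 0.0 over all genes. They included Cav1, the caveolar protein that binds Nos3 (-3.11), Nostrin, which traffics it (-2.04), Ddah1, which breaks down its inhibitor (-4.61), and Gucy1b1, a subunit of the nitric oxide receptor (-3.94). In the endothelin family, Ednrb, the endothelin B receptor, rose from 3.3 and 1.54 TPM in cerebellum to 96.9 and 137.5 TPM in anterior pituitary (5.55), while the ligand Edn3 fell from 28.6 and 19.0 TPM to 0.0214 and 0 TPM. Posterior pituitary showed Ednrb higher by 6.21 and the endothelin-converting enzyme Ece1 by 1.33 on the log2 scale. Gucy1a1 and Gucy1b1 are also mural cell genes, and the mural sums above moved with them. Upstream of the KLF genes, 6 of 10 flow-sensing genes were called higher in posterior pituitary than in cerebellum ECs, against 2.1% of all genes, among them the VEGF receptors Kdr (1.29) and Flt4 (1.51), the junction proteins Pecam1 (1.12) and Cdh5 (1.07) and the guidance receptor Plxnd1 (1.2). Mef2c, a MEF2 factor, was higher in both lobes (1.98 in the anterior and 1.80 in the posterior).

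In bound RNA, Edn1 was the 1 gene called between WT choroid plexus and WT cortex, a comparison in which 29.7% of 16775 genes were called. It was at 7.2 and 6.21 CPM in choroid plexus against 76.6 and 13.9 CPM in cortex (-2.70 ± 0.69, edgeR adjusted p = 0.0156), and an offset for effective gene length gave -3.49 (0.0136). The effective length of Edn1 was 754 to 878 bases in the WT cortex libraries and 1486 to 1942 in the other RiboTag libraries, a difference that cannot be told apart from tissue here. The call was lost without WT choroid plexus replicate 2 (0.052) or WT cortex replicate 1 (0.117). Klf4, Nos3 and Thbd had log2 fold changes of -0.87, -0.77 and -0.30 that did not pass, but without WT cortex replicate 2 Klf4 (-1.53) and Nos3 (-1.26) were called lower. Klf2 had a fold change near 0 (0.11 ± 0.70) whose sign turned with an offset for effective gene length (-0.89), and without WT cortex replicate 1 it was called higher (2.04, edgeR adjusted p = 0.00631). The cortex replicates differed strongly for every one of the 5 genes: Klf2 was at 171.2 and 24.8 TPM, Klf4 at 111.6 and 23.4, Nos3 at 12.8 and 4.58, Thbd at 30.0 and 11.1 and Edn1 at 55.4 and 10.7, with the endothelial markers at 1384.9 and 554.2 TPM. As in any bulk RNA, fewer ECs and less RNA per EC cannot be told apart.

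The third comparison asked what beta-catenin stabilization changed in ECs. None of the 5 genes was called in any of the 5 EC comparisons by edgeR, against 0.648% of genes in cerebellum, 0.458% in anterior pituitary, 1.79% in posterior pituitary, 6.32% in bound cortex and 0.852% in bound choroid plexus. At an unadjusted p under 0.05 there were 1, 3, 1, 1 and 1 of the 5 genes in these comparisons, where 9.77%, 6.99%, 12.9%, 22.7% and 13.9% of all genes reached it. DESeq2 with the same threshold called 0, 2, 1, 0 and 1 of them, beside 4.34%, 2.79%, 6.61%, 10.9% and 3.7% of all genes. The values nearest to the threshold were those of Klf4 in both pituitary lobes and of Edn1 in anterior pituitary and choroid plexus.

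Klf4 was lower in every stabilized than in every WT library of both pituitary lobes. In anterior pituitary ECs it was at 549.8 and 778.7 CPM in WT and 265.1 and 130.1 CPM in stabilized mice, a 3.44-fold difference (-1.78 ± 0.40, edgeR adjusted p = 0.098). In posterior pituitary ECs it was at 749.2 and 470.7 CPM in WT mice, against 145.4 and 201.9 CPM after stabilization, a 2.94-fold difference (-1.56 ± 0.40, edgeR adjusted p = 0.0796). DESeq2 placed both past the threshold (adjusted p = 0.00051 and 0.00261), and the adjusted p over all settings ran from 1.49e-06 to 0.279 in the anterior and from 4.72e-05 to 0.398 in the posterior lobe; edgeR called the anterior difference without stabilized replicate 1 (-2.27). In cerebellum ECs the groups overlapped, with 563.9 and 340.4 CPM in WT against 193.8 and 358.2 CPM (-0.67 ± 0.39, edgeR adjusted p = 0.557).

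Klf2 leaned the same way in the pituitary with a smaller size. Its CPM went from 317.1 and 341.0 to 214.0 and 125.0 in anterior pituitary (-0.98 ± 0.59, edgeR adjusted p = 0.7) and from 473.5 and 218.4 to 128.0 and 182.0 in posterior pituitary (-0.89 ± 0.59, edgeR adjusted p = 0.515), with no overlap between genotypes in either lobe. CPM of all 5 genes was in fact separate between the genotypes in both lobes, as it was for 43.9% and 42.7% of all genes. In cerebellum, the stabilized replicates held 25.1 and 137.6 CPM around WT values of 121.6 and 126.0 CPM. Without stabilized cerebellum replicate 2, Klf2 was called lower (-2.35, edgeR adjusted p = 0.0117), and without replicate 1 its log2 fold change was 0.20, so a single library set its value there.

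Summed immediate early gene levels were lower in every stabilized than in every WT library of each tissue, cerebellum included, where Klf2 and Klf4 overlapped. The summed level of the 13 genes was 3198.1 and 4343.7 TPM in WT against 1087.0 and 784.5 TPM in stabilized anterior pituitary ECs, 2934.9 and 901.2 against 380.2 and 322.7 TPM in posterior pituitary, and 1474.2 and 181.3 against 121.4 and 94.5 TPM in cerebellum. All 13 had counts in every one of these libraries except Egr2, which was at 0 in both stabilized cerebellum libraries. Of the 13, 4 were called lower in cerebellum, where 0.581% of all genes were. In either pituitary lobe 0 were, beside 0.0167% of all genes in the anterior and 0.541% in the posterior lobe. The list medians were -2.83, -1.96 and -1.34 in cerebellum, anterior and posterior pituitary. Microglia and macrophage markers (10 genes) went the other way, with sums of 23.5 and 20.5 TPM in WT against 200.6 and 271.9 TPM in anterior and 8.03 and 1.24 against 301.5 and 245.7 TPM in posterior pituitary ECs, where 2 and 4 of them were called higher, against 0.441% and 1.25% of all genes; Tmem119, which defines microglia, was at 0 in both WT anterior pituitary libraries. The part of either list in the KLF values was not tested.

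**Figure D3:**
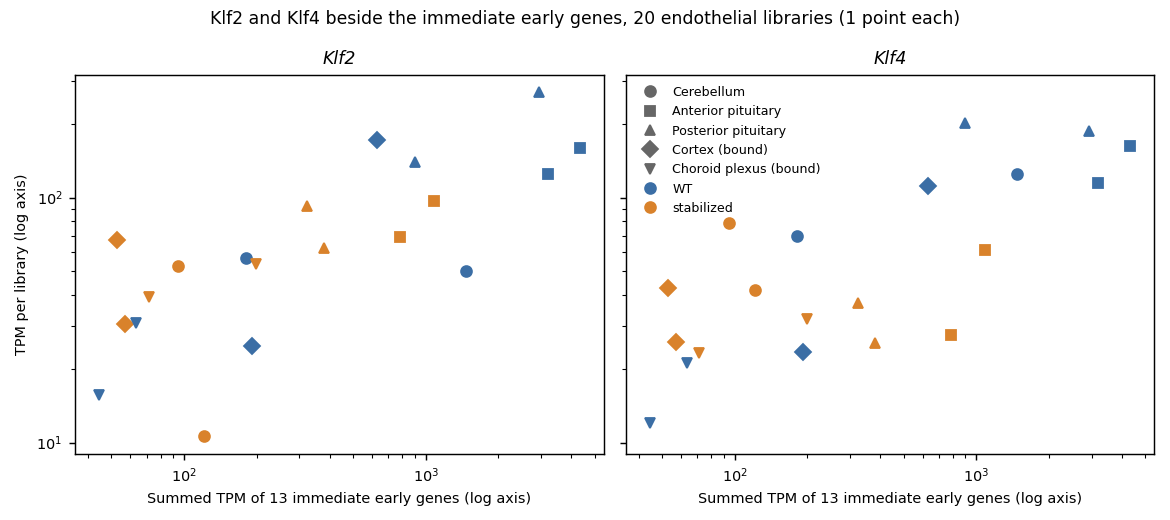
Summed TPM of 13 immediate early genes (x axis, log scale) against TPM of Klf2 and of Klf4 (y axis, log scale) in the 12 GFP-positive and the RiboTag bound libraries. Each point is 1 library, marked by tissue and genotype. Among the GFP-positive libraries, stabilized ones lie at 94.5 to 1087.0 TPM of immediate early genes and WT ones at 181.3 to 4343.7 TPM. The 2 genotypes of these sorted libraries thus overlap in part on this axis.

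Nos3 and Thbd, both targets of the KLF factors, did not pass the test in any sorted ECs. Nos3 in anterior pituitary was at 46.9 and 54.8 CPM in WT and 80.0 and 95.2 CPM in stabilized mice, with no overlap (0.79 ± 0.24, edgeR adjusted p = 0.351). In cerebellum it was at 288.2 and 309.4 against 218.2 and 204.9 CPM, again with no overlap and in the other direction (-0.50 ± 0.24, edgeR adjusted p = 0.521). In posterior pituitary it was at 97.5 and 80.8 against 70.3 and 68.3 CPM (-0.13 ± 0.24, edgeR adjusted p = 0.895). Thbd was lower in every stabilized library of all 3 tissues on CPM, with log2 fold changes of -0.94 ± 0.29 in cerebellum, -0.27 ± 0.29 in anterior and -0.44 ± 0.29 in posterior pituitary, none of which passed (edgeR adjusted p = 0.271, 0.932 and 0.511). On the TPM scale its anterior pituitary groups overlapped, at 93.2 and 113.4 in WT against 105.2 and 85.0 TPM. In cerebellum, CPM was separate between the genotypes for 35.0% of all genes.

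Edn1 had its largest genotype difference where WT ECs had almost none. Anterior pituitary ECs held 4 and 0 estimated reads in WT and 61 and 8 in stabilized mice, a ratio of 22.0 with a counting interval of 8.2 to 82.8 (edgeR adjusted p = 0.101). Even the higher stabilized library, at 0.932 TPM, stayed far under the 27.9 TPM of the lower WT cerebellum library. DESeq2 called it (adjusted p = 0.00086), as did edgeR with a replicate block (0.0496), without stabilized anterior pituitary replicate 2 (2.39e-06) and without WT anterior pituitary replicate 1 (0.0342); the library with the conflicting tissue label is that stabilized replicate 2. Without stabilized anterior pituitary replicate 1, which held 61 of the reads, the log2 fold change was 2.4 and not called (adjusted p = 0.372); over the alternatives the adjusted p ran from 8.97e-08 to 0.372. In posterior pituitary ECs Edn1 was at 22.7 and 10.3 CPM in WT and 26.2 and 32.2 CPM in stabilized mice (1.09 ± 0.69, edgeR adjusted p = 0.5), but on the TPM scale the groups overlapped, at 16.4 and 5.71 against 7.18 and 9.36 TPM. In cerebellum it was at 93.1 and 79.7 against 109.2 and 72.9 CPM (0.07 ± 0.68, edgeR adjusted p = 1.0).

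**Figure D4:**
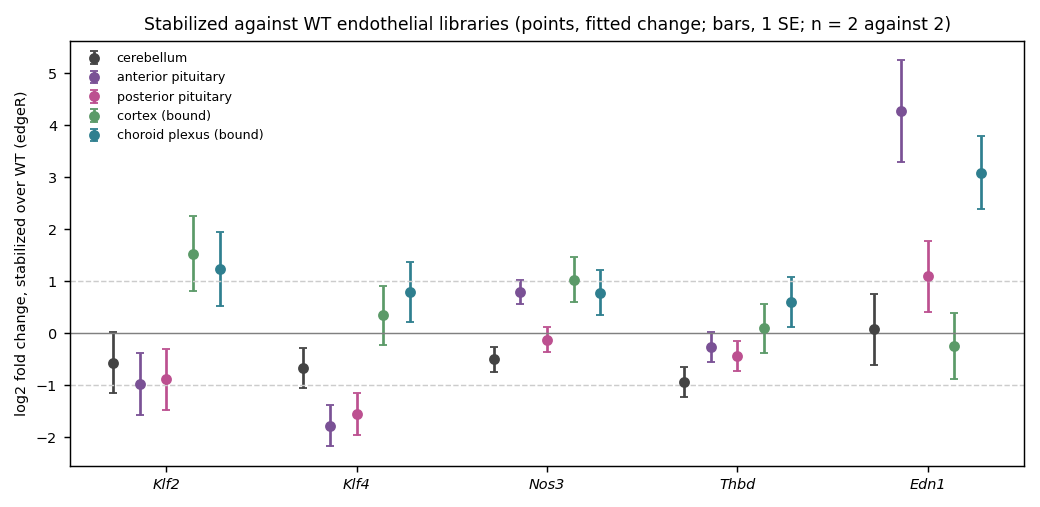
Log2 fold change (y axis) of the 5 genes in stabilized over WT libraries for the 5 EC comparisons; points are edgeR estimates and bars their standard errors (n = 2 libraries per group). Klf4 lies lowest in the 2 pituitary lobes (-1.78 and -1.56), and Edn1 lies highest in anterior pituitary (4.27) and choroid plexus (3.08).

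In bound choroid plexus RNA, all 5 genes had positive fold changes, with a median of 0.79 against -0.09 over all genes. Edn1 was at 7.2 and 6.21 CPM in WT and 92.1 and 39.4 CPM in stabilized mice, an 8.46-fold difference (3.08 ± 0.70, edgeR adjusted p = 0.0948). DESeq2 called it (adjusted p = 0.00038), as did edgeR on the choroid plexus bound groups alone (0.0128) and without stabilized replicate 2 (0.0416), and the adjusted p ran from 1.49e-10 to 0.217 over all settings. Klf2 was at 110.6 and 203.8 CPM in WT and 479.7 and 374.9 CPM in stabilized mice (1.24 ± 0.71, edgeR adjusted p = 0.478), and Klf4 at 106.9 and 166.2 against 304.6 and 236.7 CPM (0.79 ± 0.57, edgeR adjusted p = 0.586). With Nos3 (24.3 and 39.2 against 73.5 and 51.6 CPM, 0.78 ± 0.44), 4 of the 5 genes were separate between genotypes, against 44.3% of all genes in this comparison. The endothelial markers moved with them, from 496.3 and 613.3 to 1211.1 and 818.3 TPM, and their part in the result was not tested.

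In bound cortex RNA, the WT replicates again spread more widely than the stabilized ones. Klf2 was at 266.3 and 36.1 CPM in WT and 576.9 and 278.0 CPM in stabilized mice (1.53 ± 0.72, edgeR adjusted p = 0.243), yet on TPM it was at 171.2 and 24.8 against 67.4 and 30.5, and with an offset for effective gene length the log2 fold change was 0.02. The effective length that Salmon gave Klf2 was 849 to 978 bases in the 4 WT cortex libraries and 2069 to 2811 bases in the other 12 RiboTag libraries, and this difference in the libraries cannot be told apart from the genotype in cortex. Nos3 was at 83.3 and 28.1 against 118.5 and 106.4 CPM (1.03 ± 0.44, edgeR adjusted p = 0.204). Without WT cortex replicate 1, Klf2 (3.46), Klf4 (1.80) and Nos3 (1.90) were called higher. Klf4, Thbd and Edn1 overlapped between genotypes in the full fit, with log2 fold changes of 0.34, 0.09 and -0.25. Edn1 had a like division in effective length, 754 to 878 bases in the WT cortex libraries and 1486 to 1942 in the others, and the offset moved its log2 fold change to -1.22. Its TPM was lower in both stabilized than in both WT libraries, at 6.78 and 7.17 against 55.4 and 10.7, as was that of 51.9% of all genes.

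Whether the response differed between tissues was tested as the difference of the 2 genotype effects. None of the 20 tests (5 genes in 4 pairs of tissues) was called by edgeR, against 0.128% of genes for posterior minus anterior pituitary, 0.519% for anterior pituitary minus cerebellum, 0.927% for posterior pituitary minus cerebellum and 2.15% for choroid plexus minus cortex. At an unadjusted p under 0.05 there were 2, 2, 0 and 1 of the 5 genes in these pairs, where 9.09%, 11.7%, 13.8% and 17.6% of all genes were. DESeq2 called 0, 2, 0 and 1 of them, beside 2.48%, 3.88%, 5.88% and 6.58% of all genes. The smallest adjusted p was that of Edn1 for choroid plexus minus cortex (3.33 ± 0.93, edgeR adjusted p = 0.112), and the next that of Nos3 for anterior pituitary minus cerebellum (1.29 ± 0.34, edgeR adjusted p = 0.171), where its groups had moved in opposite directions. Without stabilized anterior pituitary replicate 2, Edn1 was called for both differences that involve that lobe (-3.94 and 4.97), and without WT cortex replicate 2 for choroid plexus minus cortex (4.14). The same values were nearer 0 and not called without the other library of each group, at -1.29 (adjusted p = 1.0) and 2.31 (0.523) without stabilized anterior pituitary replicate 1 and at 1.76 (0.173) without WT cortex replicate 1. The 3 differences among sorted ECs draw on the same 12 libraries.

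The other genes of the flow pathway were read from lists, beside a median log2 fold change over all genes of between -0.09 and 0.06. In posterior pituitary ECs, where 0.541% of all genes were called lower, 2 of 10 upstream flow-sensing genes fell with stabilization, the VEGF receptor Kdr from 554.6 and 535.7 to 76.1 and 88.8 TPM (-1.89) and the junction protein Pecam1 (-1.07), as did Heg1 (-1.41), the only one called of 4 genes of the CCM pathway that restrains MEKK3. None of the 7 genes of the MEKK3-ERK5-MEF2 cascade was called in any of the 5 EC comparisons, nor was any of 9 other flow-induced genes. The medians of the cascade were 0.03, 0.0, -0.71, -0.03 and 0.4 in cerebellum, anterior pituitary, posterior pituitary, cortex and choroid plexus. Among 12 other tested KLF family members, Klf7 fell in posterior pituitary (-1.14), Klf13 rose in bound cortex (1.13) and Klf12 rose in bound choroid plexus (1.45), each a single call of 12 beside 0.541% of all genes called lower in posterior pituitary, 3.65% called higher in cortex and 0.656% called higher in choroid plexus. In bound cortex, the VEGF receptor Flt4 (2.22) and the mechanosensitive channel Piezo1 (1.82) were higher and the G protein subunit Gnaq (-1.46) lower, where 3.65% of all genes were called higher and 2.67% lower. The endothelial marker list had 2 of 10 genes called lower in posterior pituitary, with a median of -0.69.

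Of the genes that low or disturbed flow and inflammation induce, 1 of 11 tested was called higher in anterior and 2 of 11 in posterior pituitary ECs, 1 of 10 in bound cortex and 2 of 10 in bound choroid plexus, with none called lower there, beside 0.458%, 1.79%, 6.32% and 0.852% of all genes called in either direction. The adhesion molecule Vcam1 rose in anterior pituitary ECs from 0 and 0.00657 to 4.83 and 14.7 TPM and in posterior pituitary (2.52), and the matricellular gene Ccn2 rose in posterior pituitary (2.57) and bound choroid plexus (2.51). Angpt2, an antagonist of the Tie2 receptor, rose in bound choroid plexus (3.22), and the pericyte-recruiting growth factor gene Pdgfb in bound cortex (2.02). In cerebellum, the adhesion molecule Icam1 fell (-1.82). Of 7 other coagulation genes of the vessel wall, 1 was called higher in anterior pituitary ECs, von Willebrand factor (Vwf, 6.51), and 1 in bound cortex, the plasminogen activator Plat (1.72), beside 0.441% and 3.65% of all genes. Of 10 tested nitric oxide genes, 1 was called higher in bound cortex, Nostrin (2.1), and 2 in bound choroid plexus, Nostrin (2.55) and Nos2 (3.53), beside 3.65% and 0.656% of all genes. Among the endothelins, Edn3 rose in anterior pituitary, from 0.0214 and 0 to 1.51 and 2.1 TPM, and in posterior pituitary, from 0 and 0.118 to 2.63 and 2.16 TPM, where Ece1 fell (-1.17). In bound cortex, Ece1 rose (1.25) and the receptor Ednrb, which astrocytes also carry, fell (-1.38).

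Outside the EC gate, 1 of the 5 genes was called in GFP-negative cerebellum cells and none in either pituitary lobe. Klf2 had 375 and 250 estimated reads in WT and 1 and 2 in stabilized GFP-negative cerebellum cells, a ratio of 95.8 (counting interval 32.6 to 465.8, edgeR adjusted p = 0.0345), against 0.627% of 19612 genes called lower. All 5 genes were lower there in both stabilized than in both WT libraries, as were 28.6% of all genes on the TPM scale. Klf4 went from 15 and 3.12 to 1.58 and 0.701 TPM (-2.59 ± 0.58, edgeR adjusted p = 0.071), Thbd from 2.44 and 4.24 to 0.0464 and 0.323 TPM, and Nos3 from 0.375 and 0.0956 TPM to being listed at 0. Immediate early genes summed to 373.5 and 121.1 TPM in WT and 39.4 and 28.2 TPM in stabilized libraries, while endothelial markers were at 18.6 and 26.2 TPM in WT and 29.6 and 3.28 TPM in stabilized libraries; their part in the result was not tested. The Klf2 call was lost with an offset for effective gene length (0.0894), in a fit of those groups alone (0.426), and without replicate 1 of either genotype (0.0577 and 0.0533). Klf4 passed without stabilized replicate 1 (-2.81) or WT replicate 2 (-3.20), and Thbd without stabilized replicate 2 (-6.30) or WT replicate 1 (-4.10).

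In GFP-negative pituitary cells, none of the 5 genes was called by edgeR, against 0.0408% of genes in the anterior and 0.133% in the posterior lobe, with 1 and 2 of them at an unadjusted p under 0.05, beside 5.51% and 9.94% of all genes. DESeq2 called 1 of the 5 in the anterior and 0 in the posterior lobe, beside 1.46% and 4.18% of all genes. Klf2 in the anterior lobe was nonetheless at 13.3 and 17.2 TPM in WT against 1.96 and 1.34 TPM (-2.68 ± 0.97, edgeR adjusted p = 0.764). On TPM, 5277 of the 19612 genes tested were lower and 2939 higher in both stabilized than in both WT libraries of that lobe. Among the 5 genes, 3 were lower and 2 higher in the same way. The higher ones were Thbd, from 2.85 and 3.23 to 8.0 and 6.21 TPM (1.60 ± 0.79, edgeR adjusted p = 0.771), and Edn1, from 0 and 0 to 1 and 9 estimated reads. Edn1 in the posterior lobe went from 0 and 0 to 32 and 10 reads. In whole tissue, Klf2 was called higher in stabilized cortex input on counts (2.18 ± 0.36, edgeR adjusted p = 0.00489), where 8.44% of genes were called higher. Its TPM overlapped, at 1.29 and 0.81 in WT and 0.83 and 0.456 in stabilized mice. The TPM of all genes had shifted there, with a median log2 ratio of -1.17 against -0.44 for Klf2. The Klf2 call was lost with the length offset (0.84, edgeR adjusted p = 0.223). No gene of the 5 was called in choroid plexus input, where 0.106% of genes were by edgeR and 0.802% by DESeq2, with 1 of the 5 at an unadjusted p under 0.05 beside 7.41% of all genes.

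Chromatin at the 5 promoters was open in all 12 ATAC-seq libraries. Each gene had a peak within 1 kb of its start in every library, against a promoter peak in both libraries for 47.2% (WT) and 50.3% (stabilized) of 21804 protein-coding genes in cerebellum, 54.2% and 54.6% in anterior pituitary, and 47.5% and 50.8% in posterior pituitary. The fold enrichment that MACS2 gave the Klf2 promoter peak was 13.61 and 16.17 for WT cerebellum ECs against 15.84 and 13.84 after stabilization, and 10.93 and 9.304 against 15.9 and 12.68 in posterior pituitary. The Edn1 promoter was at 9.921 and 10.47 against 16.28 and 15.52 in cerebellum, at 5.022 and 9.218 against 8.447 and 10.39 in anterior pituitary, and at 5.405 and 4.758 against 10.45 and 8.759 in posterior pituitary. Edn1 thus had an open promoter in WT anterior pituitary ECs, where its RNA was at 4 and 0 estimated reads. The Nos3 promoter was at 6.977 and 8.172 in WT cerebellum, 6.894 and 7.479 in WT anterior pituitary and 4.63 and 4.947 in WT posterior pituitary. The Thbd promoter was at 6.1 and 7.425 in WT posterior pituitary and 8.637 and 9.489 in WT cerebellum. The WT posterior pituitary libraries also held fewer peaks in all, 21050 and 20634 against 26394 and 24020 in WT cerebellum, and the part of this in the promoter values was not tested.

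Higher promoter enrichment in both stabilized than in both WT libraries was seen for 3 of 5 genes in cerebellum, 4 of 5 in anterior pituitary and 5 of 5 in posterior pituitary. Klf2 in anterior pituitary counts among the 4 by less than the digits printed, at 14.01 and 14.94 after stabilization against 10.04 and 14.01 for WT. Over all promoters with a peak in the 4 libraries concerned, the share was 81.8%, 55.9% and 77.2%, so these counts were near the background. Away from the promoters, 6 replicate 1 peaks within 10 kb of the 5 genes overlapped a peak in replicate 2 of the same genotype and none in the other genotype. This count leaves out a stretch near Thbd, chr2:148395276-148395543, that peaks covered in both stabilized and neither WT cerebellum library. The replicate 1 peak there was wider (chr2:148395202-148396097) and also overlapped the WT peaks. Klf2 gained 1 in posterior pituitary at chr8:72324617-72325085, a peak also present in WT cerebellum. Klf4 gained 1 within its gene in cerebellum at chr4:55530230-55530591, a peak also present in WT anterior pituitary. Nos3 gained 2 in posterior pituitary, at chr5:24383445-24383773 and chr5:24389380-24389618, and lost 1 upstream of its start in cerebellum at chr5:24361165-24361392. Both gained Nos3 peaks were also present in WT anterior pituitary, and the second in WT cerebellum as well. The lost Nos3 peak was present in both pituitary lobes of either genotype. The Thbd peak, at chr2:148395286-148395512 in stabilized anterior pituitary replicate 1, was a separate peak only in that library of the 2: in replicate 2 a wider peak covered it, chr2:148395308-148396040, whose summit at 148395876 lay between those of the neighbouring WT peaks (148395845 and 148395899). Gained peaks lay within 10 kb of 16.2%, 8.28% and 20.7% of protein-coding genes in cerebellum, anterior and posterior pituitary, and lost ones near 1.73% in cerebellum. Under a stricter peak threshold the count was 1 in place of 6. Neither TCF/LEF motif occurred within 100 bases of any of the 6 summits.

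**Figure D5:**
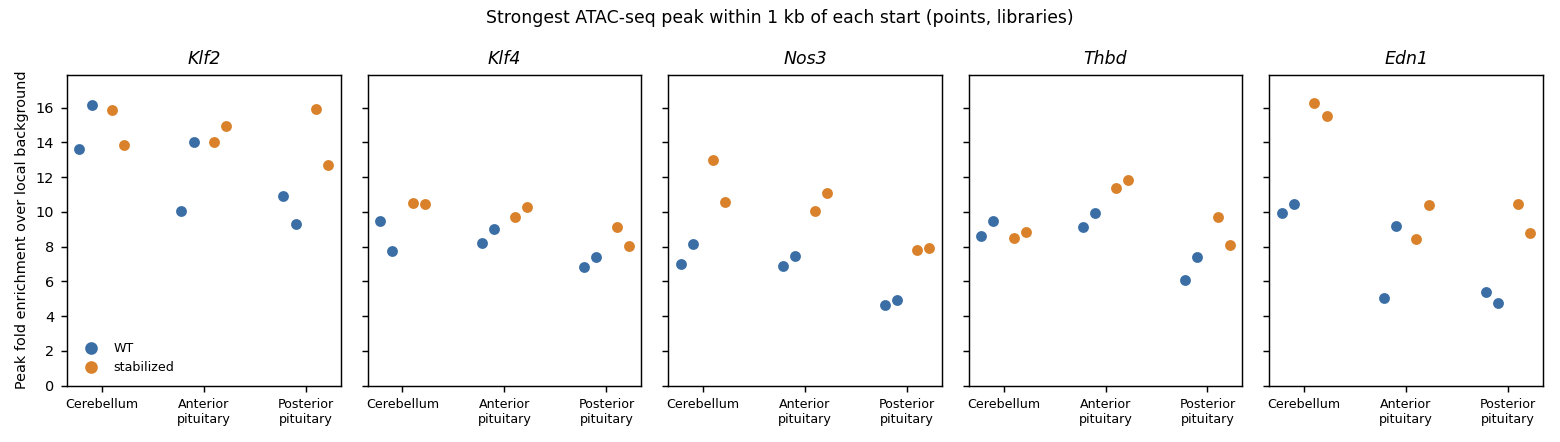
MACS2 fold enrichment (y axis) of the ATAC-seq peak at the start of each gene in the 12 libraries; each point is 1 library, by tissue and genotype. Every gene has a peak in every library, and in posterior pituitary the stabilized values lie above the WT values for all 5 genes.

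Over the 12 GFP-positive libraries, Klf2 went with Thbd and Nos3 with Edn1, while Klf4 was only loosely tied to either pair; this is a description over libraries that share tissues and genotypes. Pearson's r on log2(TPM + 1) was 0.81 for Klf2 with Thbd and 0.77 for Nos3 with Edn1, while Klf4 gave 0.56 with Klf2, 0.42 with Thbd, 0.15 with Nos3 and 0.0 with Edn1. The 4 pairs across the sets of Klf2 or Thbd and Nos3 or Edn1 ran from -0.55 to -0.50. Among 6314 genes with a mean of at least 10 TPM, the patterns most like Klf2 were those of Ddost (0.97), Uqcrh (0.93) and Hibadh (0.91), and those most like Klf4 were Atg12 (0.93), Tpm3-rs7 (0.91) and Dnajb12 (0.90). The nearest to Nos3 were Rgs5 (0.97), Prickle1 (0.96) and Ptprg (0.95), to Thbd Ptges3 (0.98), Cmip (0.98) and Mfge8 (0.97), and to Edn1 Sema3c (0.98), Foxf2 (0.98) and Slc6a6 (0.97). Rgs5 is also a pericyte gene and one of the mural markers that were high in cerebellum.

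Klf4 and Nos3 had reads on more than 1 transcript. Nos3 reads were divided between transcripts of 4132 and 3697 bases, and the share of Nos3 TPM on the longer one varied between 6.57% and 100% over the GFP-positive libraries, with 81.1% and 8.89% in the pair from WT posterior pituitary alone. Nearly all Klf4 TPM came from the transcript of 3029 bases, except in WT posterior pituitary replicate 2, where 55.2% was assigned to a transcript of 859 bases. That library had the highest Klf4 TPM of all (201.3) but not the highest CPM (470.7, against 749.2 in replicate 1).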

How the data were processed

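Sorted-cell and RiboTag RNA had been made into cDNA with NuGEN Ovation kits and sequenced single-end. The deposited files hold, per transcript, the estimated counts and TPM that the authors obtained with Salmon 0.10.2 on Ensembl 92 transcripts (GRCm38), per the submitters' processing notes and the file contents. The deposited ATAC-seq peak lists were called per library by the authors with MACS2 2.1.1.20160309 after Bowtie2 2.3.2 and hold each peak's fold enrichment (a ratio), −log10 p- and q-values and a MACS2 score, which was not used. Estimated counts were rounded after summing over transcripts with GENCODE M21 names and tested with edgeR 4.0.16 (R 4.3.3): TMM normalization, filterByExpr, quasi-likelihood test, Benjamini-Hochberg adjustment over all genes tested. The GFP-positive, GFP-negative, bound and input libraries were each fitted together for genotype and tissue, and all sorted or all RiboTag libraries for fractions. A call needed an adjusted p under 0.05 and a change of at least 2-fold. Standard errors are the log2 fold change divided by the square root of F. Counting intervals for low counts are exact, at 95%, and cover counting error only. A replicated count of 0 was given a floor of 3 counts per group.

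Peaks were kept at a fold enrichment of at least 2 and a −log10 q of at least 2, the stricter setting being 4 and 5. Scripts were tested on simulated counts, with 100 genes changed 2-fold and 100 changed 4-fold in a comparison. The edgeR fit called 2% and 21% of them for stabilized against WT cerebellum ECs and 0% and 52% for bound cortex. It called 0% and 2% for WT cerebellum ECs against GFP-negative cells and 7% and 63% for WT cortex bound against input. A gene that was not called may therefore still have changed. The members and gene lists were chosen with earlier results of these data known. Named genes were the 5 members, the called genes of the pathway lists, and for each member the 3 genes with the most similar pattern. The alternatives were DESeq2 1.42.0, RLE normalization, no count filter, a replicate block, an offset for effective gene length, a fit of the compared groups alone, no minimum fold, and leaving out each library; the crossed pairing was chosen after seeing the data. Same-numbered libraries were not shown to be pairs. The study's own test for these libraries was not rerun, and the kallisto output named in the notes was not used here.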

Additional observations from a re-analysis of the deposited data

How the results depend on the processing

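With 2 libraries a group, the count of genes called out of the 5 depended on the tool and the libraries, and no call changed direction. For most settings other than DESeq2, the share of all genes called is not given. Whether the counts of the 5 genes exceed that share under those settings cannot be read here. DESeq2 gave 2 in place of 0 in anterior pituitary ECs, 1 in posterior pituitary ECs and 1 in bound choroid plexus, 4 in place of 1 in GFP-negative cerebellum cells, 1 in GFP-negative anterior pituitary cells, 3 in place of 2 for WT posterior pituitary against cerebellum, 5 in place of 4 for bound over input choroid plexus (Edn1 added in both) and 3 of 20 differences of responses. Of all genes, it called 4.87% in GFP-negative cerebellum cells, 9.75% for WT posterior pituitary against cerebellum and 18.2% for bound over input choroid plexus. The edgeR shares there, in either direction, were 0.76%, 4.4% and 15.3%. No count filter gave 2 in anterior and 1 in posterior pituitary ECs, 2 in bound cortex, 2 in bound choroid plexus, 4 in place of 2 for WT posterior and 3 in place of 2 for WT anterior pituitary against cerebellum, 5 in place of 4 for bound over input choroid plexus, 3 in GFP-negative cerebellum, 1 in GFP-negative posterior pituitary and 3 differences of responses. The length offset gave 1 for WT posterior pituitary against cerebellum, 0 in GFP-negative cerebellum and 0 in cortex input. Fits of the compared groups alone gave 1 in bound choroid plexus, 5 in place of 4 for bound over input choroid plexus, 3 in place of 2 for WT anterior pituitary against cerebellum, 0 for the 2 WT lobes, 2 again for WT posterior pituitary against cerebellum but with Edn1 in place of Thbd, 3 in place of 5 for posterior pituitary ECs against GFP-negative cells and 0 in GFP-negative cerebellum. The changed peaks, counted from replicate 1 peaks as above, were 6, 1 under the stricter threshold and 19 within 100 kb.

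The labels number libraries 1 and 2 in each group without saying that a number marks a pair, and the correlations of same-numbered libraries ran from -0.27 to 0.13. A replicate block gave 1 call in place of 0 in anterior pituitary ECs (Edn1, 4.18), 2 in place of 1 in GFP-negative cerebellum (Klf4 added, -2.46), 3 in place of 2 for WT posterior pituitary against cerebellum and 5 in place of 4 for bound over input choroid plexus (Edn1 added in both), and the same count in the other comparisons; the crossed pairing in choroid plexus input called 4 genes in all and 0 of the 5, beside 0 genes with the plain block and 17 without one.

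Leaving out 1 library at a time gave 0 to 1 calls in cerebellum and in anterior pituitary ECs, 0 to 3 in bound cortex, 0 to 1 in bound choroid plexus, 1 to 2 for WT posterior pituitary against cerebellum, 0 to 3 for WT choroid plexus against cortex, 1 to 2 in GFP-negative cerebellum and 0 to 2 differences of responses. The libraries concerned are named above beside each gene. The causes were not tested, beyond the smaller number of libraries in these fits. Of the single fold changes, 526 stayed on their side of the threshold, 32 passed it and 8 lost it over the other settings. Edn1 in anterior pituitary rests on at most 61 estimated reads a library.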
